A study of Homo sapiens and Mus musculus with 30 samples.

Results

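RAB proteins are small GTPases that direct membrane traffic. In the GTP-bound state a RAB sits on 1 membrane compartment and recruits effectors, which move, tether or fuse vesicles; exchange factors load GTP, GTPase-activating proteins end the cycle, and prenylation enzymes attach the lipid anchor that holds the protein on membranes. Many RABs exist as near-duplicate copies, marked A, B, C or D after a shared number, that work at the same or a neighbouring step. The RAB genes were followed here in cells with graded LIN28B, an RNA-binding protein of embryonic and tumour cells that keeps let-7 microRNAs from maturing and also attaches to messenger RNAs.

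Members were the genes whose symbol is RAB, a number and at most 1 letter from A to D, with a mean total RNA of at least 1 RPKM (reads per kilobase of gene, scaled to the size of the library). This gave 43 of 11342 genes in HEK293A, a human embryonic kidney line, and 37 of 10348 genes at that level in NIH3T3, a mouse embryonic fibroblast line. The NIH3T3 table lists 58 such symbols, and Rab36 at 0.934, Rab42 at 0.657 and Rab29 at 0.635 RPKM lay just under the minimum, with Rab8b at 1.26 and Rab23 at 1.46 RPKM just above it. All 43 human symbols in the HEK293A table passed, the lowest being RAB24 at 1.72 and RAB9B at 1.77 RPKM, because that table holds only genes at 1 RPKM or more in every total RNA library. Both lines shared 34 RAB genes. RAB3B, RAB6B, RAB9B, RAB15, RAB26, RAB36, RAB38, RAB39A and RAB40B were members in HEK293A only, and Rab4b, Rab30 and Rab43 in NIH3T3 only.

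Each line was sampled at 5 amounts of LIN28B named X0 to X4. X0 of HEK293A lacks a working LIN28B gene per the series' design text, X1 to X4 carry rising amounts, doxycycline at 10 ng/ml served to induce the transgene, and all cells grew in DMEM with serum. The NIH3T3 series was designed the same way, and neither the labels nor the design text say whether a level is 1 clone or whether X0 also received doxycycline. The protocol value of 10 ng/ml is entered alike for every library, X0 included. Every level has 1 library of total RNA and 1 of polysome RNA, the RNA bound by ribosomes, and HEK293A X0 cells given mature let-7a at 10 nM have 1 of each as well. P-values therefore measure only the scatter of single libraries around a straight line over the 5 ordered levels, and part of that scatter may be technical. Depth, as whole reads recovered from the RPKM values, was 37691311 to 56057611 reads in HEK293A total RNA and 9096549 to 14610307 in HEK293A polysome RNA, with 35134742 and 7399720 in the let-7a pair. NIH3T3 had 16072087 to 25003548 reads in total RNA and 15930323 to 20819955 in polysome RNA. LIN28B checked the labels in HEK293A, with 3.598, 23.0, 33.4, 81.2 and 208.0 RPKM of total RNA from X0 to X4. Mouse Lin28b was counted in NIH3T3 total RNA with 1, 1, 1, 9 and 42 reads, and the sources used here do not give the species of the transgene. The tables carry human and mouse gene identifiers, and the lines were not checked by other markers.

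Occupancy is the log2 of polysome RPKM minus the log2 of total RPKM, each with 0.5 RPKM added, and its slope is in log2 units per step of LIN28B level. In HEK293A 7 RAB genes rose in occupancy and 14 fell as LIN28B increased (limma, adjusted p under 0.05 over all 11342 genes). Those that rose were RAB8B, RAB18, RAB9B, RAB38, RAB11A, RAB5A and RAB1A, with slopes from 0.33 to 0.15. RAB11B, RAB24, RAB20, RAB1B, RAB36, RAB35, RAB3A, RAB32, RAB34, RAB40C, RAB15, RAB26, RAB40B and RAB5B fell, with slopes between −0.41 and −0.17. Both directions occurred within each of the 4 role groups, and in the RAB1, RAB5 and RAB11 families 1 copy rose and another fell.

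These 21 calls are 48.8% of the 43 members and have to be read against the whole table, in which 57.0% of genes were called, 18.5% upward and 38.5% downward. The median RAB slope was −0.08, next to −0.07 for all genes, and the SD of slopes was 0.17 over the RAB genes, next to 0.19 over all genes. As a group the RAB genes thus had slopes much like those of the table at large. The median gene stood 0.32 log2 units lower at X4 than at X0, so directions also depend on where a library is centred. After centring every library on its own trimmed mean, 10 RAB genes rose and 9 fell, next to 54.8% of all genes called in either direction. Of the 21 calls 16 were kept, RAB2A, RAB13 and RAB28 joined those that rose, and RAB5B, RAB15, RAB26, RAB40B and RAB40C were no longer called. After quantile normalization 8 RAB genes rose and 9 fell, next to 52.1% of all genes called. Without X4 none of the 21 calls was left, and none of the 11342 genes passed. Without X0 5 were left, namely RAB11B, RAB20, RAB1B, RAB36 and RAB35, next to 14.7% of all genes. The slope of RAB11B was −0.41 without X0 and −0.47 without X4, and that of RAB8B 0.30 without X0 and 0.23 without X4.

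**Figure D1:**
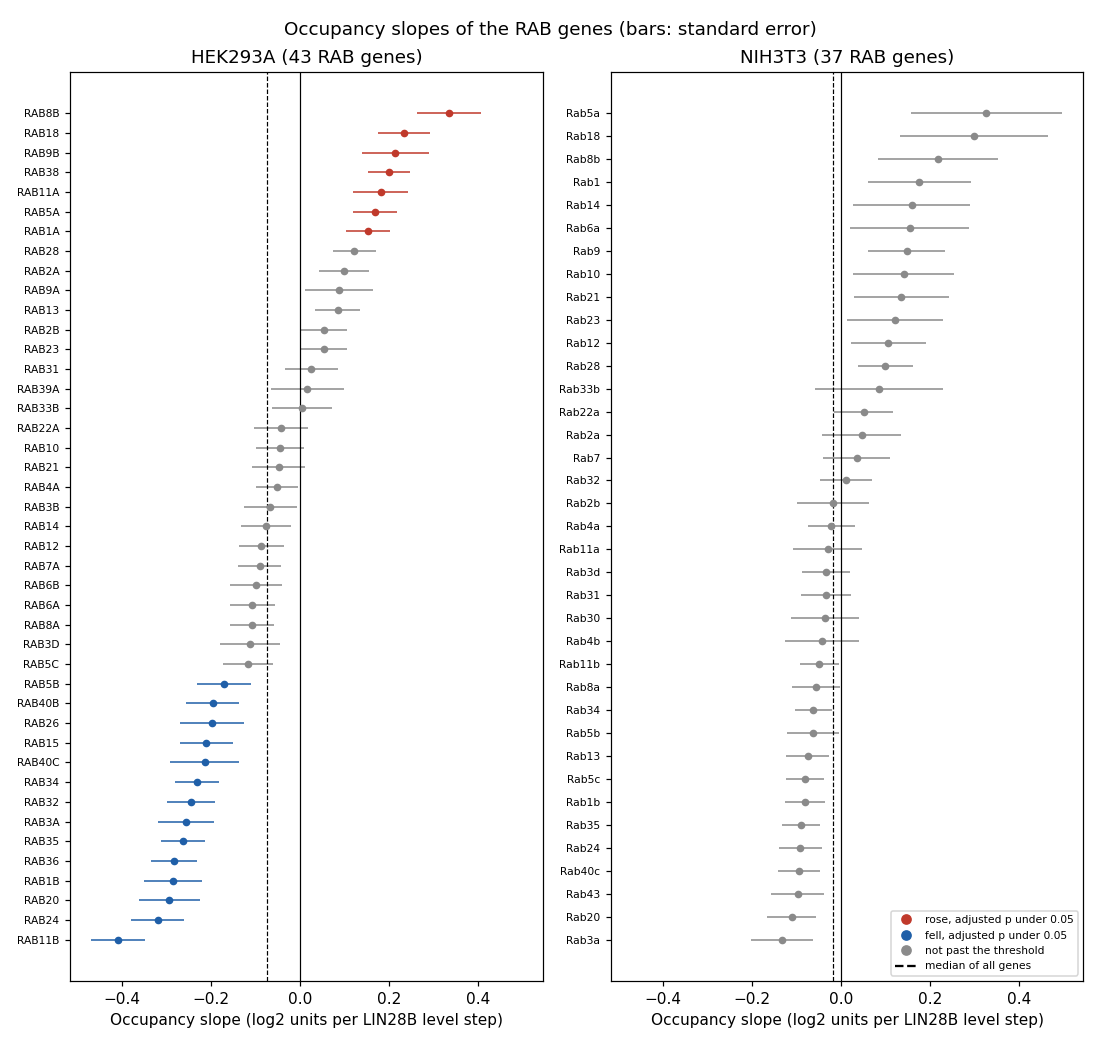
Occupancy slope (log2 units per LIN28B level step, x axis) of each RAB gene in HEK293A on the left and NIH3T3 on the right; points are limma estimates, bars their standard error, colour the call, and the dashed line the median of all genes. HEK293A slopes run from −0.41 for RAB11B to 0.33 for RAB8B with 21 called genes, and no NIH3T3 gene is called.

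RAB genes of traffic between the endoplasmic reticulum and the Golgi numbered 10 in HEK293A, of which 2 rose and 3 fell in occupancy. RAB1A (ENSG00000138069.12) and RAB1B (ENSG00000174903.10), which both act in transport from the endoplasmic reticulum to the Golgi, went apart. RAB1A had 36.4, 58.4, 53.3, 66.8 and 86.5 RPKM in polysome RNA from X0 to X4, and 37.1, 44.6, 44.4, 47.1 and 53.8 RPKM in total RNA. RAB1B had 230.5, 156, 195, 114.5 and 87.8 RPKM in polysome RNA, and 153, 137, 139, 150.2 and 129 RPKM in total RNA. RAB1A was lowest at X0 and highest at X4 in both fractions, while RAB1B was highest at X0 and lowest at X4 in both. The slope of RAB1A occupancy was 0.15 ± 0.05 (SE; adjusted p = 0.0228, limma) and that of RAB1B −0.29 ± 0.07 (adjusted p = 0.00527).

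RAB18, which sits on the endoplasmic reticulum and lipid droplets, rose by 0.23 ± 0.06 per level (SE; adjusted p = 0.00764, limma). Its polysome RNA was 14.8, 22.5, 20.2, 23.2 and 42.0 RPKM from X0 to X4. Its total RNA was 14.3, 14.3, 14.7, 14.1 and 18.2 RPKM. All levels above X0 held more polysome RNA of RAB18 than X0, X4 most of all, and occupancy at X4 was 2.20-fold that at X0. Of the remaining members, the Golgi RABs RAB34 and RAB36 fell with slopes of −0.23 and −0.28, and RAB2A, RAB2B, RAB6A, RAB6B and RAB33B had slopes between −0.11 and 0.10 that did not pass the threshold.

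Early endosome and recycling RABs numbered 12, of which 2 rose and 4 fell. RAB5A (ENSG00000144566.6), RAB5B (ENSG00000111540.11) and RAB5C (ENSG00000108774.10) all act in fusion of early endosomes. Polysome RNA of RAB5A was 12.6, 14.9, 15.2, 19.2 and 24.6 RPKM from X0 to X4, next to total RNA of 13.6, 13.7, 13.9, 13.4 and 16.8 RPKM. RAB5B had 5.14, 3.57, 3.51, 3.63 and 2.64 RPKM in polysome RNA and 5.23, 4.87, 4.82, 4.67 and 5.43 RPKM in total RNA. For RAB5C these were 6.65, 7.98, 7.31, 5.87 and 5.72 RPKM in polysome RNA and 5.11, 5.34, 5.75, 5.70 and 5.67 RPKM in total RNA. RAB5A polysome RNA was higher at every successive level, that of RAB5B was lowest at X4, and that of RAB5C was higher at X1 and X2 than at X3 and X4. The slopes were 0.17 ± 0.05 for RAB5A (SE; adjusted p = 0.0146, limma), −0.17 ± 0.06 for RAB5B (adjusted p = 0.0332) and −0.12 ± 0.06 for RAB5C (adjusted p = 0.0922).

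RAB11A (ENSG00000103769.5) and RAB11B (ENSG00000185236.7) work at the recycling endosome. RAB11A had 38.9, 58.4, 45.6, 67.2 and 84.3 RPKM in polysome RNA from X0 to X4, and 29.6, 30.2, 30.7, 29.9 and 36.8 RPKM in total RNA. RAB11B had 39.8, 27.2, 27.5, 15.5 and 11.5 RPKM in polysome RNA, and 31.3, 30.3, 32.2, 35.8 and 26.8 RPKM in total RNA. At X0 the copies were nearly equal in both fractions, and at X4 they were much further apart in polysome RNA than in total RNA. The slope of RAB11A was 0.18 ± 0.06 (SE; adjusted p = 0.0274, limma). RAB11B had the steepest fall of all RAB genes, −0.41 ± 0.06 (adjusted p = 0.00209), and its occupancy at X4 was 0.347 of that at X0.

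An antisense gene, RAB11B-AS1, is listed beside RAB11B, and the sources used here do not say whether reads were counted by strand. It had 5.80, 2.73, 3.12, 2.29 and 1.73 RPKM in polysome RNA from X0 to X4 and 4.14, 4.00, 3.95, 3.90 and 4.16 RPKM in total RNA, so its polysome RNA also was highest at X0 and lowest at X4. Its part in the RAB11B values was not tested. More generally, how reads from stretches shared by copies were counted is not given either, and values of single copies carry that uncertainty.

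RAB35, which acts in fast recycling to the plasma membrane, fell by 0.26 ± 0.05 per level (SE; adjusted p = 0.0026, limma). Its polysome RNA was 40.02, 33.4, 33.8, 25.9 and 19.5 RPKM from X0 to X4, while its total RNA was 33.2, 35.0, 35.3, 37.3 and 35.0 RPKM. X3 and X4 had the lowest polysome values, although total RNA was no lower there than at X0. RAB20 fell with a slope of −0.29, and RAB4A, RAB14, RAB21, RAB22A and RAB31 had slopes between −0.08 and 0.02 without a call.

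RABs of late endosomes, lysosomes, autophagy and lysosome-related organelles numbered 7, of which 2 rose and 2 fell. The related RAB38 and RAB32, both known for delivering cargo to melanosomes, moved in opposite directions. RAB38 polysome RNA was 29.2, 39.5, 40.9, 49.95 and 68.9 RPKM from X0 to X4, with 14.0, 16.4, 14.9, 16.6 and 18.5 RPKM in total RNA. RAB32 polysome RNA was 35.0, 27.5, 20.8, 20.3 and 15.4 RPKM, with 18.5, 16.0, 17.5, 15.7 and 16.8 RPKM in total RNA. Polysome RNA of RAB38 was higher and that of RAB32 lower at every successive level. The slopes were 0.20 ± 0.05 for RAB38 (SE; adjusted p = 0.00597, limma) and −0.24 ± 0.05 for RAB32 (adjusted p = 0.00435). RAB9B, of transport from late endosomes to the Golgi, rose, and RAB24, linked to autophagy, fell, though RAB24 had as few as 24 reads in a library. RAB9B had as few as 54 reads and was not called with a pseudocount of 0.1 RPKM (adjusted p = 0.0545, limma). RAB7A, the main late endosomal RAB and with a mean of 150.0 RPKM the most abundant RAB total RNA, had a slope of −0.09 ± 0.05 (adjusted p = 0.128).

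RABs of secretory vesicles, the plasma membrane and the cilium numbered 11, of which 1 rose and 3 fell, a split that became 3 up and 1 down after centring. RAB8A (ENSG00000167461.7) and RAB8B (ENSG00000166128.8) carry vesicles to the plasma membrane and the cilium. RAB8B polysome RNA was 2.32, 4.41, 3.70, 4.89 and 10.7 RPKM from X0 to X4, and its total RNA 3.59, 3.77, 3.75, 3.86 and 4.82 RPKM. RAB8A polysome RNA was 27.7, 21.4, 24.8, 20.4 and 17.9 RPKM, and its total RNA 30.7, 29.5, 30.1, 29.5 and 28.4 RPKM. RAB8B was several times higher in polysome RNA at X4 than at X0, and RAB8A was highest at X0. RAB8B had the steepest rise of all RAB genes, 0.33 ± 0.07 per level (SE; adjusted p = 0.00402, limma), with an occupancy at X4 3.07-fold that at X0. RAB8A had a slope of −0.11 ± 0.05 (adjusted p = 0.0822).

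RAB3A, a RAB of regulated secretion, fell by 0.26 ± 0.06 per level (SE; adjusted p = 0.00696, limma). It had 2.80, 2.49, 1.86, 1.496 and 1.45 RPKM in polysome RNA from X0 to X4 and 4.19, 5.39, 5.07, 5.84 and 4.79 RPKM in total RNA. Its lowest library held 29 reads, so counting error reached 0.28 log2 units in a single level. RAB15 and RAB26 fell with slopes of −0.21 and −0.20, and RAB28, the ciliary member closest to the threshold, had a slope of 0.12 (adjusted p = 0.0516). In no role list, RAB40B and RAB40C, parts of ubiquitin ligases, fell with slopes of −0.20 and −0.21, and RAB39A had a slope of 0.02 on as few as 6 reads.

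The order of the levels was not smooth for most members. Of the 21 called RAB genes 6 moved the same way at all 4 steps, namely RAB5A, RAB24, RAB34, RAB36, RAB38 and RAB40B (28.6%, next to 31.3% of all called genes). In 10 of the 21, among them RAB1A, RAB1B, RAB8B and RAB11A, the step to X1 was followed by a step in the other direction at X2. This held for 58.2% of all called genes.

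Divergence of copies was then measured within pairs. A letter pair is a set of 2 genes with the same symbol, ending in a digit, but for a last letter from A to D or its absence. The occupancy difference, first letter minus later letter, was fitted over the levels for all 496 such pairs of the HEK293A table. Pairs were formed by symbol alone, so those outside the RAB genes need not be related copies. Of 13 RAB pairs 5 differed in slope (38.5%), against 37.3% of all letter pairs. The median size of the slope difference was 0.14 over the RAB pairs, next to 0.15 over all letter pairs. Between RAB genes of different number, over 890 combinations, that median was 0.18. A shift common to a whole library cancels within a pair. Without X0, and likewise without X4, no RAB pair and none of the 496 letter pairs passed, and without X3 2 RAB pairs did (RAB11A/RAB11B and RAB5A/RAB5B), next to 10.7% of letter pairs. Slope differences in those fits were 0.53 to 0.66 for RAB11A/RAB11B and 0.41 to 0.42 for RAB1A/RAB1B. They were −0.48 to −0.33 for RAB8A/RAB8B, weakest without X4. For RAB5A/RAB5B they were 0.28 to 0.36, and for RAB5A/RAB5C 0.26 to 0.35.

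RAB11A against RAB11B had the largest RAB difference, 0.59 ± 0.10 (SE, log2 units for each step of level; adjusted p = 0.00831 by limma over 496 pairs), the 4th largest of all letter pairs. From X0 to X4 the copies differed in occupancy by 0.05, 1.09, 0.78, 2.34 and 2.37. For RAB1A against RAB1B the slope difference was 0.44 ± 0.09 (adjusted p = 0.0126), with occupancy differences of −0.62, 0.20, −0.23, 0.89 and 1.23 from X0 to X4. RAB1B thus had the higher occupancy at X0 and RAB1A at X4.

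RAB8A against RAB8B gave −0.44 ± 0.10 (SE; adjusted p = 0.0147, limma), with differences of 0.39, −0.65, −0.25, −0.83 and −1.73. Here the B copy was the one that gained. RAB5A differed from RAB5B by 0.34 ± 0.06 (adjusted p = 0.00926) and from RAB5C by 0.29 ± 0.06 (adjusted p = 0.0152). The differences to RAB5B were −0.09, 0.52, 0.53, 0.83 and 1.46, and those to RAB5C −0.46, −0.42, −0.20, 0.47 and 0.53. RAB5A enters both of these pairs, so they are not independent.

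The other 8 pairs did not pass. RAB6A/RAB6B had the smallest difference, −0.01 ± 0.06, followed by RAB40B/RAB40C at 0.02 ± 0.08, RAB2A/RAB2B at 0.04 ± 0.06, RAB3B/RAB3D at 0.05 ± 0.08 and RAB5B/RAB5C at −0.05 ± 0.08. RAB9A/RAB9B at −0.13 ± 0.06, RAB3A/RAB3D at −0.14 ± 0.11 and RAB3A/RAB3B at −0.19 ± 0.07 (adjusted p = 0.0778) had larger differences. RAB40B and RAB40C were both called as falling, and at nearly the same slope.

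**Figure D2:**
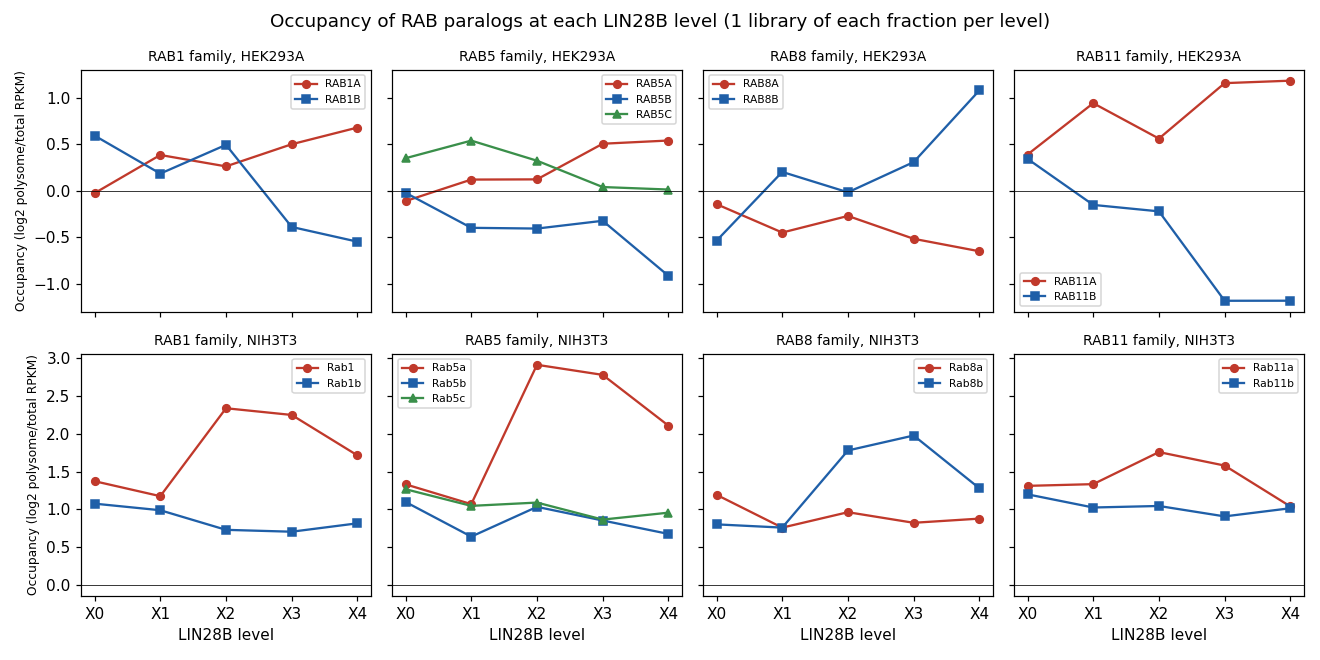
Occupancy (log2 polysome over total RPKM, y axis) of the RAB1, RAB5, RAB8 and RAB11 copies at each LIN28B level (x axis) in HEK293A (top row) and NIH3T3 (bottom row); each point is 1 polysome and 1 total library. In HEK293A RAB11A and RAB11B start 0.05 apart at X0 and end 2.37 apart at X4, and the RAB1 and RAB8 copies cross, while in NIH3T3 Rab1, Rab5a and Rab8b are highest at X2 or X3.

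In the families with a called pair, chosen by these same values, the makeup of ribosome-bound RNA differed between levels with the copies. RAB1A was 13.6, 27.3, 21.4, 36.8 and 49.6% of the RAB1 RPKM in polysome RNA from X0 to X4, and 19.6, 24.6, 24.3, 23.9 and 29.5% in total RNA. RAB11A was 49.4, 68.2, 62.4, 81.3 and 88.0% of the RAB11 RPKM in polysome RNA, and 48.6, 49.9, 48.9, 45.5 and 57.9% in total RNA. RAB8B was 7.72, 17.1, 13.0, 19.3 and 37.5% of RAB8 RPKM in polysome RNA, and 10.5, 11.4, 11.1, 11.6 and 14.5% in total RNA. In all 3 families the polysome share moved over a wider range than the total share. RAB5A made up 51.6, 56.3, 58.4, 67.0 and 74.7% of RAB5 RPKM in polysome RNA, and 56.8, 57.3, 56.9, 56.4 and 60.2% in total RNA. In families without a called pair, polysome shares ran from 80.2 to 83.4% for RAB6A and from 73.5 to 77.3% for RAB2A. They ran from 85.0 to 91.3% for RAB9A, 87.8 to 92.3% for RAB40C and 41.1 to 56.5% for RAB3A.

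For RAB8 and RAB11 the sum over the copies moved less than the copies. RAB8 summed to 30.01, 25.8, 28.5, 25.3 and 28.6 RPKM in polysome RNA from X0 to X4, and RAB11 to 78.7, 85.6, 73.1, 82.7 and 95.8 RPKM. The RAB1 sum, which is mostly RAB1B, was 267, 214, 249, 181 and 174 RPKM. Summed occupancy was −0.19 at X0 and −0.21 at X4 for RAB8 and 0.37 and 0.59 for RAB11, but 0.49 and −0.07 for RAB1 and −0.71 and −1.56 for RAB3. These sums were not tested.

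**Figure D3:**
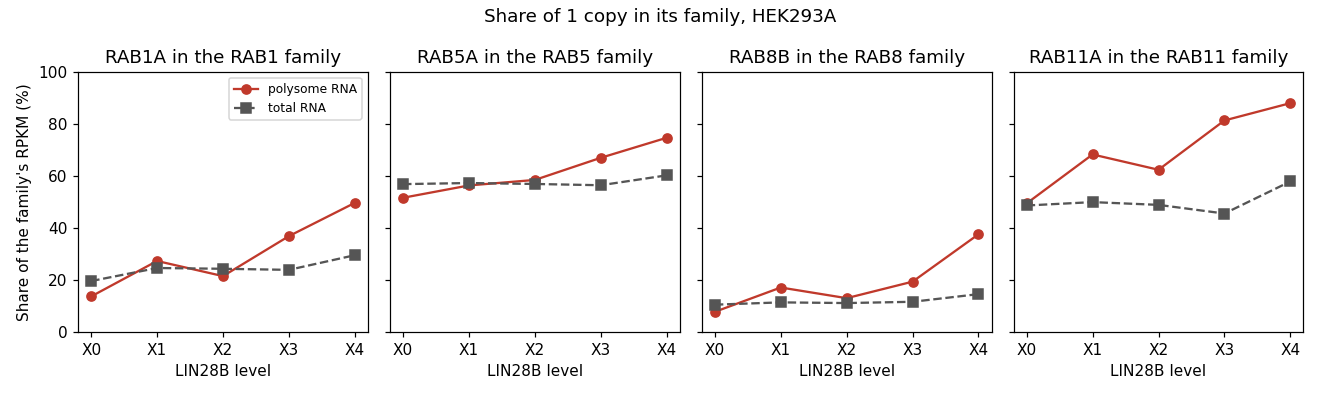
Share of the family's RPKM (%, y axis) held by RAB1A, RAB5A, RAB8B and RAB11A at each LIN28B level (x axis) in HEK293A, in polysome RNA (circles) and total RNA (squares), 1 library each. RAB1A goes through 13.6, 27.3, 21.4, 36.8 and 49.6% in polysome RNA while its total RNA share stays between 19.6 and 29.5%.

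In total RNA 1 RAB gene changed in HEK293A. RAB1A rose with LIN28B level (slope 0.11 ± 0.02, SE; adjusted p = 0.0405 by limma), 1 of 43 members next to 2.24% of all genes, 1.48% upward and 0.758% downward, and its total RNA at X4 was 1.44 times that at X0. That call did not hold after centring on the trimmed mean (adjusted p = 0.053), with 1 prior variance for all genes (0.0606), or without X0 (0.316), X3 (0.0594) or X4 (0.0685), where RAB20 passed in its place. The other slopes lay between −0.08, for RAB34, and 0.14, for RAB20, with a median over all members of 0.03, next to 0.002 over all genes. Slopes were positive in 31 of 43 members, next to 5856 of 11342 genes. An unadjusted p under 0.05 (limma) was found for 12 of 43 members, next to 2047 of 11342 genes. None of the 13 RAB pairs differed in total RNA slope, next to 2.42% of letter pairs, and 2 of the 13 had an unadjusted p under 0.05, next to 114 of 496 letter pairs. RAB1A/RAB1B was the closest (0.15 ± 0.04, adjusted p = 0.0932).

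Machinery that acts on RABs was counted by list. Of 34 GTPase-activating proteins 5 rose and 19 fell in HEK293A occupancy, and of 28 exchange factors 3 rose and 16 fell, with median slopes of −0.18 in both lists next to −0.07 for all genes. Over all genes 18.5% rose and 38.5% fell, which is the background for the counts by list without centring only. After centring 54.8% of all genes passed in either direction, and the median slope of all genes was −0.01. The split of all genes by direction after centring is not given here. The centred counts were 8 up and 13 down for the GTPase-activating proteins and 5 up and 13 down for the exchange factors. Smallest p among the first had TBC1D9B (−0.36), TBC1D14 (−0.31), TBC1D10B (−0.33) and TBC1D13 (−0.32), and among exchange factors RGP1 (−0.29), HPS4 (−0.28), DENND5A (−0.28) and MADD (−0.27), all of which fell.

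Of 35 RAB effectors 8 rose and 15 fell (11 and 11 after centring), led by MICALL1 (−0.36), PLIN3 (−0.33), GOLGA2 (−0.31) and RABEP2 (−0.31). Factors of RAB recycling and prenylation had a median slope of 0.13, with 5 of 10 up and 2 down (6 and 2 after centring). Among them, of the geranylgeranyl transferase subunits RABGGTB (0.24) rose and RABGGTA (−0.25) fell, while the escort protein CHM (0.27) rose. Other small GTPases had 13 of 43 up and 15 down (14 and 10 after centring), with ARF1 (−0.39), RHOB (−0.34), RND3 (0.29) and ARL2 (−0.29) at the smallest p. In total RNA 1 effector, GORASP2 (0.11), and 2 other small GTPases, MRAS (0.15) and RALB (0.13), rose, and no gene of the GTPase-activating, exchange factor or recycling lists passed, of which 4, 3 and 0 had an unadjusted p under 0.05, next to 2047 of 11342 genes. Without X4 no gene of these lists passed in occupancy, nor did any gene of the table. Without X0, where 14.7% of all genes passed, no list had an upward call, and 8 GTPase-activating proteins, 5 exchange factors, 6 effectors, 0 recycling factors and 6 other small GTPases fell.

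In NIH3T3 no RAB gene passed the threshold in occupancy, nor did any of the 10348 genes (0.0% called by limma). At an unadjusted p under 0.05 stood 0 of 37 RAB genes and 506 of all genes. RAB slopes ran from −0.13 for Rab3a to 0.33 for Rab5a, with a median of −0.02 both for the RAB genes and for all genes. A straight line does not capture a peak at middle levels. The median RAB occupancy relative to X0 was −0.17, 0.15, 0.15 and −0.18 from X1 to X4. Over all genes it was −0.08, −0.01, −0.07 and −0.10. This difference in shape was not tested. In total RNA 0.0% of genes passed too, and 5 of 37 RAB genes and 1136 of all genes had an unadjusted p under 0.05. Standard errors of the RAB slopes ran from 0.05 to 0.08 in HEK293A and from 0.04 to 0.17 in NIH3T3. No gene of the lists of GTPase-activating proteins, exchange factors, effectors, recycling factors and other small GTPases passed in NIH3T3 occupancy, and 2 of 25, 2 of 28, 2 of 30, 0 of 8 and 0 of 40 had an unadjusted p under 0.05.

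The 5 RAB genes of smallest p in NIH3T3 occupancy, with p from 0.0788 to 0.098 and adjusted p = 0.624 by limma, were Rab35, Rab20, Rab40c, Rab3a and Rab5a. Rab35 had 49.8, 43.6, 39.2, 37.5 and 36.6 RPKM in polysome RNA from X0 to X4 and 22.9, 20.8, 18.8, 20.9 and 21.4 RPKM in total RNA. Its occupancy stood at 1.10, 1.05, 1.04, 0.83 and 0.76 log2 units, lower at every step. Rab20 had 12.3, 16.1, 16.7, 12.6 and 11.8 RPKM in polysome RNA and 3.84, 5.57, 6.15, 5.02 and 5.19 RPKM in total RNA, and its occupancy of 1.56, 1.45, 1.37, 1.25 and 1.11 was also lower at every step. These 2 genes alone among the 37 had the same direction at all 4 steps, next to 2.22% of all NIH3T3 genes. Rab40c had 22.0, 20.6, 19.0, 19.7 and 19.7 RPKM in polysome RNA and 12.03, 12.8, 13.3, 13.7 and 14.3 RPKM in total RNA. Rab3a had 17.4, 16.0, 14.4, 10.5 and 13.1 RPKM in polysome RNA and 9.76, 7.50, 8.66, 8.59 and 8.97 RPKM in total RNA. Occupancy of Rab40c was highest at X0 and that of Rab3a at X1, where it was 1.05. Their slopes were −0.09 and −0.13, against −0.09 for Rab35 and −0.11 for Rab20.

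Rab5a had the steepest slope and also the largest standard error among the RAB genes, 0.33 ± 0.17. Its polysome RNA was 15.1, 9.92, 15.6, 22.0 and 15.7 RPKM from X0 to X4 and its total RNA 5.68, 4.47, 1.64, 2.78 and 3.26 RPKM. Total RNA was lowest at X2, where the gene had 62 reads, next to 335 at X0. Rab18 total RNA was lowest at X2 as well, with 74.2, 42.3, 85.2, 89.3 and 58.8 RPKM in polysome RNA and 24.0, 12.8, 7.66, 9.84 and 10.8 RPKM in total RNA. Among the 37 RAB genes the occupancy slope and the total RNA slope in NIH3T3 had a Spearman correlation of −0.73, next to −0.50 over all 10348 genes, as a description only, since both slopes use the total RNA libraries. In HEK293A that correlation was 0.28 over the 43 RAB genes and 0.11 over all genes.

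Slopes of individual RAB genes were set side by side between the lines. Over the 34 shared RAB genes the slopes in HEK293A and NIH3T3, which share no library, had a Spearman correlation of 0.72 and a Pearson correlation of 0.69, next to 0.52 and 0.51 over 6820 shared genes; genes are not independent replicates. The sign was the same in both lines for 22 of the 34 (64.7%), next to 69.7% of all shared genes. Of the 15 shared RAB genes called in HEK293A 13 had the same sign in NIH3T3 (86.7%, next to 77.7% of all shared genes called in HEK293A). Of these 15, the sign was opposite for RAB11A and RAB32, whose NIH3T3 slopes were −0.03 and 0.01.

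Signs of the pair differences were also compared between the lines. Of 8 RAB pairs measured in both lines 7 had a slope difference of the same sign, including all 5 pairs called in HEK293A, next to 69.9% of all 249 shared letter pairs and 82.8% of the 93 called in HEK293A. In NIH3T3 0 of 9 RAB pairs and 0 of 327 letter pairs passed (0.0%), and 1 RAB pair, Rab5a/Rab5b, had an unadjusted p under 0.05, next to 26 letter pairs in all. The HEK293A and NIH3T3 slope differences were 0.44 and 0.26 ± 0.15 for RAB1A (Rab1 in mouse) against RAB1B, and 0.34 and 0.39 ± 0.15 for RAB5A against RAB5B. They were 0.29 and 0.41 ± 0.19 for RAB5A against RAB5C, and −0.44 and −0.27 ± 0.13 for RAB8A against RAB8B. RAB11A against RAB11B, with the largest difference in HEK293A at 0.59, had 0.02 ± 0.09 in NIH3T3. The exception in sign was RAB5B against RAB5C, at −0.05 in HEK293A and 0.02 in NIH3T3.

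Makeup of the families differed between the lines. RAB5A was 56.4 to 60.2% of RAB5 total RNA in HEK293A, while Rab5a was 1.19 to 3.43% in NIH3T3, where Rab5c held 57.0 to 64.2%. RAB1B led RAB1 total RNA in both lines, with 70.5 to 80.5% in HEK293A and 87.3 to 93.8% in NIH3T3. Polysome share of Rab1 in NIH3T3 was 15.4, 10.0, 17.5, 21.9 and 14.3% from X0 to X4, with no steady order. In total RNA slope no NIH3T3 pair passed either (0.0% of 327 letter pairs), and 1 of the 9 RAB pairs, Rab5b/Rab5c, had an unadjusted p under 0.05, next to 47 letter pairs. The lines have separate tables on different genome builds, so only shares within a line are set side by side.

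**Figure D4:**
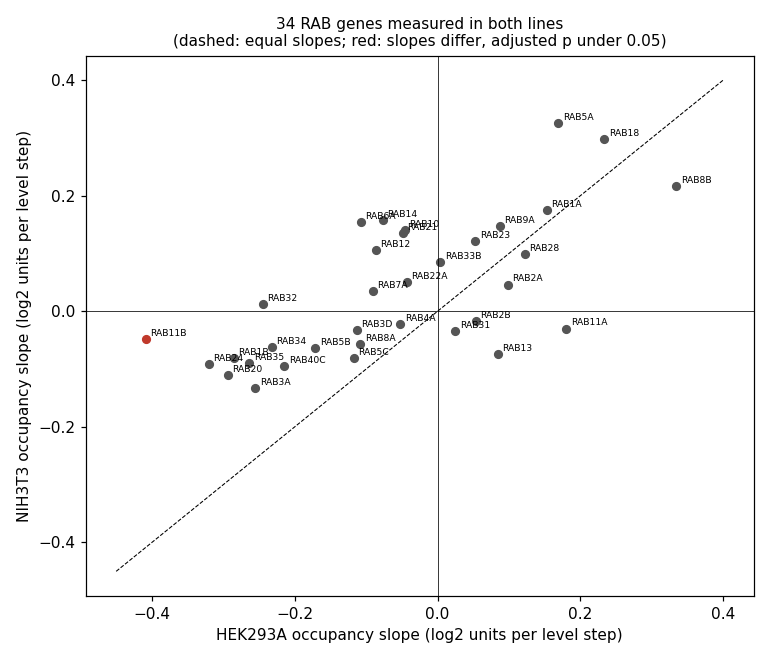
Occupancy slope in HEK293A (x axis) and in NIH3T3 (y axis), in log2 units per level step, of the 34 RAB genes measured in both; the dashed line marks equal slopes and red a tested difference. RAB11B, at −0.41 in HEK293A and −0.05 in NIH3T3, is the only red point.

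Whether the slope itself differed between the lines was tested with a term for line by level over 6820 shared genes. RAB11B was the only one of 34 RAB genes past the threshold (2.94%), next to 12.6% of all genes. Its slope was −0.41 in HEK293A and −0.05 in NIH3T3, a difference of −0.36 ± 0.08 (SE; adjusted p = 0.0331, limma). Its adjusted p was 0.223 without X0, 0.067 without X1, 0.115 without X3 and 0.102 without X4, fits in which none of the 6820 genes passed, and the difference was between −0.39 and −0.33 in them. After centring the difference was −0.29 (adjusted p = 0.0645), where 1.26% of genes passed. Rab11b in NIH3T3 had 43.3, 61.7, 59.1, 48.2 and 51.2 RPKM in polysome RNA from X0 to X4 and 18.6, 30.1, 28.4, 25.5 and 25.1 RPKM in total RNA. Its occupancy was 1.20, 1.02, 1.04, 0.91 and 1.01, on at least 2790 reads in each library. RAB32 came next (−0.26 ± 0.08, adjusted p = 0.0502). RAB18 at 0.23 and 0.30 and RAB1A at 0.15 and 0.18 in HEK293A and NIH3T3 differed between the lines by −0.07 ± 0.18 and −0.02 ± 0.13.

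Let-7a was transfected into HEK293A X0 cells as mature RNA, which asks how occupancy differs with added microRNA where LIN28B is lowest. The transfected strand, shown because its seed (bases 2 to 8, in capitals) is what a target pairs with, reads as follows in RefSeq (GRCh38.p14), where 1 of its 3 genes, MIRLET7A1, gives it at chr9:94175962-94175983 on the plus strand.
hsa-let-7a-5p: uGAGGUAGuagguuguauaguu

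There is 1 transfected and 1 untransfected library per fraction, in tables that may have been normalized separately. Differences therefore have no test, and how far they exceed the spread between cultures is not known. The let-7a table lists 61 RAB symbols, 46 of them at 1 RPKM or more, and the 43 that the untransfected table also holds were compared; RAB4B at 2.28, RAB27A at 1.70 and RAB30 at 1.07 RPKM were left out. Occupancy in let-7a cells minus untransfected cells had a median of 0.16 over the RAB genes, next to 0.15 over 11342 genes, with 27 RAB genes higher and 16 lower. Only RAB33B passed a change of 1 log2 unit, at 1.01 (1 of 43, next to 5.11% of all genes), on a polysome value of 2.08 RPKM with let-7a and 0.643 without.

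Among members at 5 RPKM or more in untransfected X0 total RNA, the largest differences upward were those of RAB12, RAB8A, RAB4A, RAB22A and RAB6A. RAB3A (0.78), RAB15 (0.76) and RAB40B (0.61) lay under that minimum. RAB12, of endosome-to-lysosome traffic, had 20.03 RPKM in let-7a polysome RNA and 12.3 RPKM in untransfected polysome RNA, and 15.9 and 17.2 RPKM in total RNA, an occupancy difference of 0.79. RAB8A had 46.7 RPKM with let-7a and 27.7 RPKM without in polysome RNA, and 29.9 and 30.7 RPKM in total RNA (0.78). Total RNA of both was close to its untransfected level. RAB4A had 28.2 RPKM with let-7a and 16.9 RPKM without in polysome RNA, and 17.9 and 16.4 RPKM in total RNA (0.60). RAB6A had 16.4 RPKM with let-7a and 11.2 RPKM without in polysome RNA, and 18.2 and 17.6 RPKM in total RNA (0.48). In RAB22A (0.53) both fractions were higher, with 9.51 RPKM in let-7a polysome RNA and 3.45 RPKM in untransfected polysome RNA, and 9.91 and 5.43 RPKM in total RNA.

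Downward, RAB40C had the lowest difference, −0.45, with 6.48 RPKM in let-7a polysome RNA and 10.8 RPKM in untransfected polysome RNA, and 6.30 and 7.57 RPKM in total RNA. RAB38 followed at −0.42, with 18.1 and 29.2 RPKM in polysome RNA and 11.7 and 14.0 RPKM in total RNA. In both genes polysome RNA was lower with let-7a by more than total RNA was. RAB1B had 180.5 RPKM with let-7a and 230.5 RPKM without in polysome RNA, and 145 and 153 RPKM in total RNA (−0.28). RAB23 had 7.13 and 6.49 RPKM in polysome RNA, and 9.72 and 7.40 RPKM in total RNA (−0.24), and RAB18 had 16.95 and 14.8 RPKM in polysome RNA and 18.2 and 14.3 RPKM in total RNA (−0.15). For RAB23 and RAB18 both fractions were thus higher with let-7a, total RNA more so. Counting error alone was 0.13 for RAB40C, 0.14 for RAB38, 0.04 for RAB1B, 0.16 for RAB23 and 0.08 for RAB18 (1 SD, log2). Taken relative to the median gene, each of these differences would be 0.15 lower, and the median over the RAB genes was then 0.004.

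In total RNA RAB26 passed 1 log2 unit (1.54), with 6.03 RPKM in let-7a cells and 1.74 RPKM in untransfected cells, 1 of 43 RAB genes next to 3.82% of all genes. RAB11A had 17.4 RPKM in let-7a total RNA and 29.6 RPKM in untransfected total RNA, and RAB11B 38.7 and 31.3 RPKM. RAB11A was thus 30.9% of RAB11 total RNA with let-7a and 48.6% without, and 30.3% and 49.4% of RAB11 polysome RNA. For RAB8B the share of RAB8 polysome RNA was 2.80% with let-7a and 7.72% without, and for RAB1A that of RAB1 polysome RNA was 16.1% with let-7a and 13.6% without. Shares of RAB5A in RAB5 polysome RNA were 43.8% with let-7a and 51.6% without. These values share the untransfected X0 libraries with the level series.

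**Figure D5:**
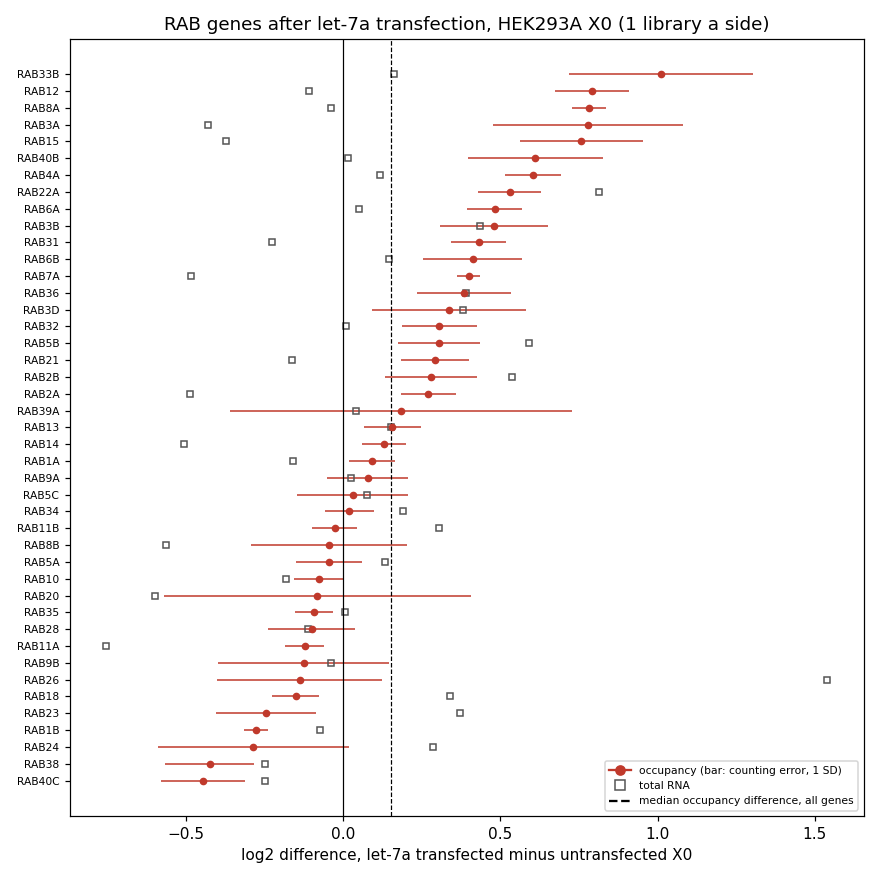
Log2 difference of let-7a transfected minus untransfected X0 HEK293A cells (x axis) for each of 43 RAB genes, as occupancy (circles; bars are 1 SD of counting error) and as total RNA (squares), 1 library a side; the dashed line is the median occupancy difference of all genes, 0.15. Occupancy differences run from −0.45 for RAB40C to 1.01 for RAB33B.

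Gene features other than the symbol were set beside the slopes. The Spearman correlation of the HEK293A occupancy slope with the length over which reads were counted was 0.24 over the 43 RAB genes and 0.02 over 11341 genes, and with mean total RPKM 0.05 and −0.10. Slope and occupancy at X0 had −0.11 over the RAB genes and −0.05 over all genes. These are descriptions across genes of the same 10 libraries and were not tested.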

How the data were processed

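Total and polysome RNA libraries (22 of the 30 in the series) were used; the 8 small RNA libraries were not used here. The authors deposited RPKM values, made with cutadapt and STAR and the builds hg19 and mm10 per the submitters' processing notes; the sources used here do not give the counting tool, strand setting or annotation. The series' design text speaks of replicates, but the tables hold 1 column per level and fraction. Whole reads were recovered from the RPKM values within 0.002 of a whole number for 11341 of 11342 HEK293A genes and 21039 of 21042 NIH3T3 genes above 0, and served for depth and counting error only.

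Values were log2(RPKM + 0.5), which understates changes of low genes. Slopes over level ranks 0 to 4 were fitted with limma 3.58.1 (R 4.3.3), its prior variance following the mean log2 total RNA, over all genes at a mean total RNA of 1 RPKM or more, with Benjamini-Hochberg adjustment and a threshold of 0.05. Within-pair differences and line-by-level terms were fitted likewise over all letter pairs and shared symbols; mouse Rab1, Rab7 and Rab9 were matched to RAB1A, RAB7A and RAB9A through RefSeq synonyms. In simulated data 100 genes had a slope of 0.25, 100 had 0.5 and all others had none (20 pairs each in the pair fit). There the HEK293A occupancy fit called 20% of genes with 0.25 and 71% of those with 0.5 (11342 genes). The NIH3T3 fit called 1% and 56% (10348 genes), and the HEK293A pair fit 45% and 80% (496 pairs). In the HEK293A data 57.0% of genes were called, which makes the adjusted threshold less strict. The simulated shares are therefore not the sensitivity of the HEK293A calls reported here.

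Members and lists were chosen with earlier results of these data known. Values by level are given for the 5 largest occupancy rises and falls past the threshold at 5 RPKM or more in each line (or the 5 of smallest p), called pairs, genes called in total RNA or between lines, and the 5 highest and lowest let-7a differences at 5 RPKM or more in untransfected X0 total RNA; other lists give the 4 of smallest p, of which 1 gene is not reported here. Rab18 of NIH3T3, RAB11B-AS1 and the family sums were added after their values were seen. Alternatives were the pseudocount, a filter at 5 RPKM, centring, quantile normalization, each level left out, 1 prior variance and X1 to X4 as a group against X0.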

Additional observations from a re-analysis of the deposited data

Results flagged for a closer look

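RAB11B differed between the lines in the test of the slope difference itself, with −0.41 log2 units of occupancy per level in HEK293A and −0.05 in NIH3T3, a difference of −0.36 (limma, adjusted p = 0.0331 over 6820 genes). Occupancy of RAB11B was lower than at X0 at all 4 higher levels in HEK293A, and Rab11b was lower than at X0 at all 4 in NIH3T3. In each line these 4 changes share the same X0 libraries. The median over all NIH3T3 genes was also below X0 at all 4 higher levels. The NIH3T3 slope of −0.05 had an SE of 0.04 and was not called, so whether the lines share a sign cannot be decided. No shared RAB gene stood above X0 at every level in 1 line and below it at every level in the other.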

How the results depend on the processing

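Counts of RAB calls are given as main value and alternative. Genes changed in HEK293A occupancy numbered 21, and 0 with X1 to X4 as a group against X0 (0 to 22 leaving out 1 level at a time). For the 5 HEK293A pairs these were 0 and 0 to 5. The 1 gene called in HEK293A total RNA became 0 after centring, with 1 prior variance and in the grouped fit (0 to 1 leaving out a level). In NIH3T3 the grouped fit called 6 RAB genes in total RNA (2 up, 4 down, beside 21.7% of all genes) and 2 of 9 pairs (beside 31.8% of letter pairs), against 0 and 0. Leaving out a level gave 0 to 1 NIH3T3 pairs in occupancy, 0 to 0 NIH3T3 genes in either measure, 0 to 0 NIH3T3 pairs in total RNA and 0 to 1 HEK293A pairs in total RNA. The 1 NIH3T3 pair passed without X4, next to 6.42% of letter pairs, and the 1 HEK293A pair without X3, next to 2.62%. With a level left out, 0.0 to 46.0% of HEK293A letter pairs passed in occupancy and 0.0265 to 4.8% of HEK293A genes in total RNA. The 1 gene that differed between lines, next to 12.6% of all genes, became 3 with a pseudocount of 0.1 RPKM (14.1% of all genes). This count became 2 with the filter at 5 RPKM (30.6%), 0 after centring (1.26%) and 0 to 3 leaving out a level (0.0 to 18.4%). In the grouped fit the RAB11B difference was −0.83. Leaving out any 1 level leaves fewer residual degrees of freedom by construction. In HEK293A occupancy 14.7% of all genes passed without X0, 58.5% without X1, 63.8% without X2, 44.0% without X3 and 0.0% without X4. The cause of these moves was not tested. None of the called slopes changed sign in the alternatives run. The let-7a median of 0.16 was 0.13 with a pseudocount of 1 RPKM and 0.00 relative to the median gene. No paired analysis was possible because the labels give no replicate numbers and each level has 1 library per fraction. Depth limits RAB24, RAB20, RAB26 and RAB39A most, with 24, 23, 25 and 6 reads in their lowest library.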
